A study of Mus musculus with 6 samples.

Results

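A set of 10 named targets of the tumour suppressor p53 with roles in DNA repair, nucleotide supply or metabolism were read from testes of mice at postnatal day 5. They are Ddb2, Xpc, Ercc5 and Polk (repair and lesion bypass), Rrm2b and Ak1 (nucleotides), Tigar, Ephx1 and Dcxr (metabolism) and Cgref1 (cell growth). They were chosen by gene symbol, and all 10 matched 1 identifier each among the 57170 in the deposited table. The sKO group holds 4 libraries (sKO-1 to sKO-4) from mice in which Mdm2 was deleted conditionally in germ cells that have not entered meiosis. The WT group holds 2 libraries (WT-1 and WT-2) labelled wild type. Both groups are testis from postnatal day 5, and polyadenylated RNA was sequenced. The labels name no Cre driver and no strain, and do not say whether a library is 1 animal. The series' design text gives 3 replicates per group, which differs from the titles used here. P-values therefore measure the spread between these libraries.

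MDM2 is a ubiquitin ligase that binds p53 and sends it to the proteasome, so loss of MDM2 lets p53 protein build up without a change in its messenger RNA. p53 then binds DNA and switches on genes for cell cycle arrest, cell death, repair and metabolism. The repair targets feed nucleotide excision repair, in which damage is found, the helix is opened and the damaged strand is cut on both sides. The metabolic targets act on deoxynucleotide supply, sugar breakdown and detoxification. Ddb2 is a p53 target in human cells, and whether the mouse gene responds to p53 in that way was not tested here.

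The libraries held 17.99 M to 18.4 M expected counts (M for mega) each, and 17707 genes were tested. CPM are counts divided by the TMM-scaled library size, in units of 1 per M. Mdm2, the deleted gene, was at 37.6, 47.3, 41.8 and 45.1 CPM in sKO-1 to sKO-4, against 67.2 and 75.9 CPM in WT-1 and WT-2. Its groups did not overlap. Its mean was 43.0 ± 4.24 CPM (SD, n = 4) in sKO and 71.6 ± 6.19 CPM (SD, n = 2) in WT, with a log2 fold change of −0.74 that the edgeR test called (adjusted p = 0.0241). That call ended without sKO-2 (0.0561), sKO-3 (0.0739), WT-1 (0.171) or WT-2 (0.111). The summed level of 25 germ cell markers was 253 to 372 CPM in sKO and 990 to 1339 CPM in WT. Of the 24 that could be tested 21 were lower, and no marker was at 0 in every library. Their median log2 fold change was −2.32, or −2.05 without WT-1 and −2.58 without WT-2, fits with 1 WT library each. The sums of 18 Sertoli cell markers (7674 to 8891 CPM in sKO, 6620 to 8150 CPM in WT) and 10 Leydig cell markers (1271 to 1726 CPM in sKO, 1124 to 1422 CPM in WT) overlapped. Those of 12 peritubular and stromal (7127 to 9374 CPM in sKO, 6355 to 8230 CPM in WT) and 9 macrophage markers (67.2 to 83.5 CPM in sKO, 77.0 to 79.9 CPM in WT) also overlapped. The sums of 8 endothelial markers (301 to 363 CPM in sKO, 272 to 299 CPM in WT) and of 7 erythroid markers (487 to 709 CPM in sKO, 402 to 405 CPM in WT) did not. Of these lists, 1 Sertoli gene was higher (Amh, adjusted p = 0.0429) and 1 peritubular gene lower (Cnn1, adjusted p = 0.0323). Both calls ended without each of the 6 libraries in turn (adjusted p = 0.0696 to 0.323 for Amh and 0.0538 to 0.268 for Cnn1). The sum of 7 markers of epididymis and rete was 35.8 to 48.1 CPM in sKO and 28.4 to 44.6 CPM in WT. In bulk tissue, fewer cells of a type and less RNA per cell cannot be told apart. The first principal component set sKO-1, sKO-2 and WT-1 (library subset 1) apart from sKO-3, sKO-4 and WT-2 (library subset 2), with 38.1% of the variance; the labels name no batch.

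Of the 10 target genes, 1 fell and 0 rose in sKO testes by edgeR's quasi-likelihood test at an adjusted p under 0.05. Over all genes tested, 2.30% were lower, 0.124% were higher and 2.43% were called in either direction. The gene that fell was Cgref1. At an unadjusted p under 0.05, 4 of the 10 passed (Cgref1, Ephx1, Ercc5 and Tigar), beside 13.1% of all genes. DESeq2 called 1 higher (Ephx1) and 1 lower (Cgref1), and limma-voom 0 higher and 1 lower (Cgref1). The log2 fold changes of the 10 ran from −1.51 to 0.65, with 5 above 0 and 5 below and a median of 0.06, beside a median of 0.03 over all genes tested. With library sizes taken from Sertoli markers the median of all genes moved to −0.14 and that of the 10 to −0.11. All 4 sKO libraries lay above both WT libraries for Ercc5 and Ephx1, 2 of 10 genes beside 9.79% of all genes. They lay below both WT libraries for Xpc, Tigar and Cgref1, 3 of 10 genes beside 13.3% of all genes. With the library subset as a term in the fit, Ephx1 and Ercc5 rose and Cgref1 fell. Those 2 higher and 1 lower of 10 stand beside 4.97% higher and 8.65% lower over all genes in that fit. The term was read from the same libraries, so its p-values may be too small.

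**Figure D1:**
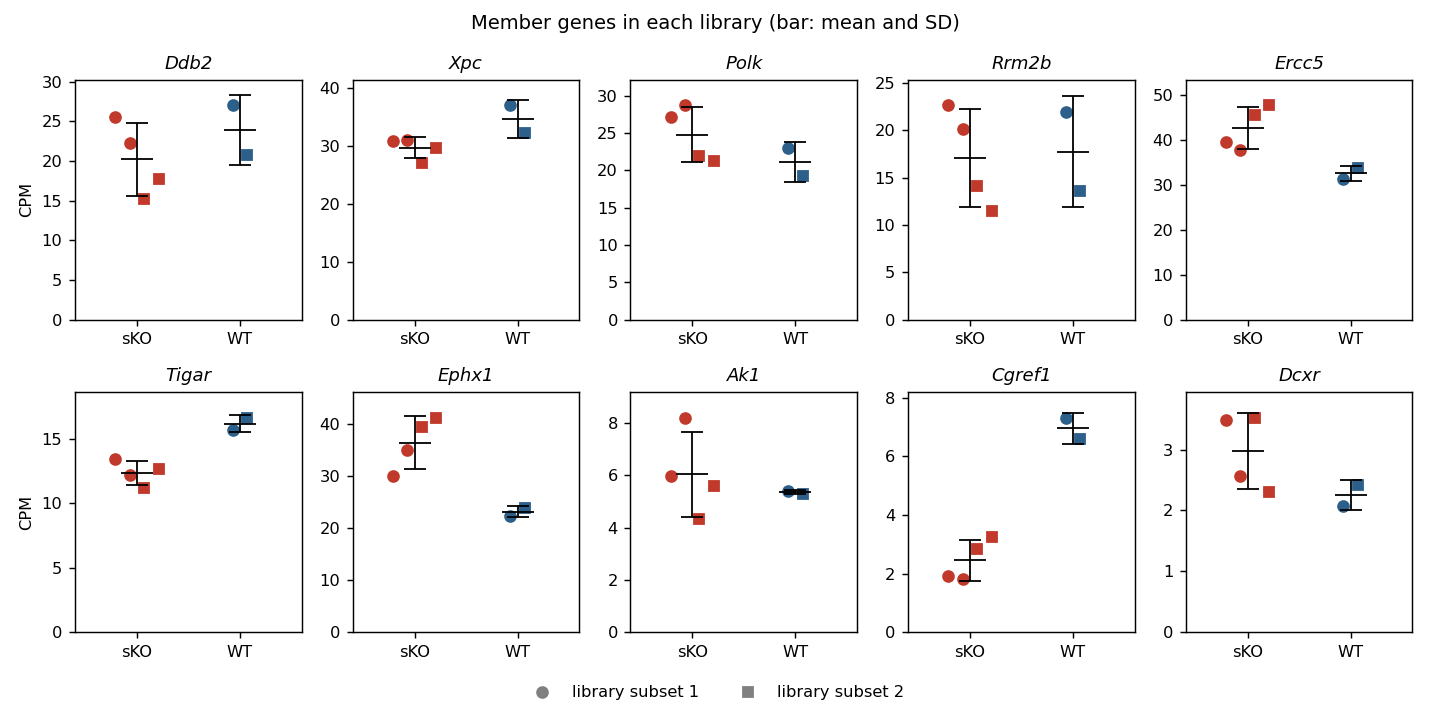
Each panel plots the CPM (linear axis from 0) of 1 target gene in the 4 sKO and 2 WT libraries, with circles for library subset 1 and squares for library subset 2, and black bars for the mean and SD. Cgref1, Tigar and Xpc lie lower and Ephx1 and Ercc5 higher in every sKO library than in both WT libraries, while Rrm2b separates by library subset inside each genotype.

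The 250 bases before the listed transcript starts were read for the genes that the RefSeq promoter table (GRCm38.p6) holds, which are 7 of the 10, with 12 windows. The p53 half-site consensus, a palindromic motif of which p53 binds a pair, was in 1 of the 12 windows, before the more downstream start of Polk, and in 7.12% of 32817 windows over all genes. The GC box GGGCGG, on either strand, was in 4 of the 12 windows (of Cgref1, Polk and Tigar), a share near the 32.7% of all windows. The CCAAT box, on either strand, was in 4 of the 12 (of Dcxr, Ephx1, Ercc5 and Tigar), near the 33.8% of all windows. Shown are 1 window for each of the 3 genes called in either fit and the Polk window with the half-site, 5′ to 3′ on the gene's strand. Of the 2 overlapping windows of Cgref1, both with GC boxes, the one before the more upstream start is shown. Capitals mark the GC box in Cgref1, the CCAAT box in Ephx1 and Ercc5 and the p53 half-site in Polk.
Cgref1 (chr5:30945481-30945730, minus strand): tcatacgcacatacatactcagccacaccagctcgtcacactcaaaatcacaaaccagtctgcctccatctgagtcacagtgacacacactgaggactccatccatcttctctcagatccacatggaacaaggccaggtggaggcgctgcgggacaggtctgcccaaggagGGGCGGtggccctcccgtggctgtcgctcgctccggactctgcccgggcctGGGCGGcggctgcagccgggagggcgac
Ephx1 (chr1:181017570-181017819, minus strand): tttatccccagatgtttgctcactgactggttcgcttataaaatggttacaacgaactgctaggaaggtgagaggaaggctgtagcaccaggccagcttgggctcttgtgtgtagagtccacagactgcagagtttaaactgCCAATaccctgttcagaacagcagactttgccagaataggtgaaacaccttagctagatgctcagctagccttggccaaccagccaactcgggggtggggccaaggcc
Ercc5 (chr1:44147494-44147743, plus strand): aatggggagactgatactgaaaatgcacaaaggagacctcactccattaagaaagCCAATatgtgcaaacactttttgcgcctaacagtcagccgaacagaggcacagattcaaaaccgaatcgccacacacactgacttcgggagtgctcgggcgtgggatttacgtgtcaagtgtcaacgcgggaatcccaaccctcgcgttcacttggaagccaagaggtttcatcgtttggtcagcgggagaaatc
Polk (chr13:96519188-96519437, minus strand): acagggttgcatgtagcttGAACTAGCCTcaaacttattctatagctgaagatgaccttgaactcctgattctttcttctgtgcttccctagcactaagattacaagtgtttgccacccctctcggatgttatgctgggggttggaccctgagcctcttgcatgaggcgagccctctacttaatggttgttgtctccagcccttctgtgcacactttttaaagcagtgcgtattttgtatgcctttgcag
The absence of a match says only that these letters are not in these windows, since p53 sites often lie in introns or farther away.

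Cgref1, which encodes a secreted EF-hand protein named as a regulator of cell growth, was at 1.91, 1.82, 2.83 and 3.24 CPM in sKO-1 to sKO-4, against 7.32 and 6.59 CPM in WT-1 and WT-2. The groups did not overlap, and the sKO libraries of subset 1 were the lowest. The means were 2.45 ± 0.696 CPM (SD, n = 4) in sKO and 6.96 ± 0.516 CPM (SD, n = 2) in WT. The log2 fold change was −1.51 (SE 0.29, 95% interval −2.18 to −0.84, adjusted p = 0.0430). It was −1.99 within library subset 1 and −1.13 within subset 2, and −1.55 with the subset term (adjusted p = 0.00350). Stretches of 150 bases in Cgref1 transcripts are 97.3% identical to Sec24a and 95.3% identical to Dnajc14, Gm43057 and 9630050E16Rik. Mean expected counts of these genes were 705, 1336, 18.9 and 3.9 in that order. How reads were divided between them and Cgref1 was not tested. The library counts of Cgref1 ran from 34.2 to 141. Its call ended without sKO-1 (adjusted p = 0.0989), sKO-2 (0.108), sKO-3 (0.0927), sKO-4 (0.0555), WT-1 (0.349) or WT-2 (0.131), and within subset 2 alone (0.0647). The germ cell marker sum was lower in the same 4 sKO libraries, and its part in the fall of Cgref1 was not tested. Of 13182 other named genes with at least 1 CPM on average, those whose log2 CPM followed Cgref1 most closely over the 6 libraries were Sbno1 (Pearson r = 0.998), Fbl (0.998) and Rcor2 (0.996). With 6 libraries scaled together, 209 genes had r above 0.95. Sbno1 and Fbl had log2 fold changes of −0.47 and −0.42 and did not pass (adjusted p = 0.0714 and 0.0757), and Rcor2 fell by 1.01 on the log2 scale (adjusted p = 0.0357).

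Ephx1, the microsomal epoxide hydrolase that opens reactive epoxides to diols, was at 30.0, 35.1, 39.6 and 41.3 CPM in sKO-1 to sKO-4. It was at 22.4 and 23.9 CPM in WT-1 and WT-2. Every sKO library was above both WT libraries, with the higher values in sKO-3 and sKO-4. The means were 36.5 ± 5.03 CPM (SD, n = 4) in sKO and 23.2 ± 1.07 CPM (SD, n = 2) in WT, a ratio of 1.57. The log2 fold change of 0.65 (SE 0.15, 95% interval 0.30 to 1.01) missed the threshold without a covariate (edgeR adjusted p = 0.0845). It was called with the subset term (0.00402), by DESeq2 (0.00922), with no count filter (0.0454) and within subset 2 alone (0.0134). Over all alternatives its adjusted p ran from 0.00402 to 0.501 and its log2 fold change from 0.47 to 0.75. The genes that followed Ephx1 most closely were Mocs2 (r = 0.994), Gdnf (0.990) and Angpt2 (0.989), with 62 genes above 0.95. Of these, Mocs2 had a log2 fold change of 0.16, Gdnf, a growth factor for spermatogonia, 0.43, and Angpt2 0.71, and none passed (adjusted p = 0.500, 0.0918 and 0.158). The endothelial and erythroid marker sums were higher in the same 4 sKO libraries, and their part in the Ephx1 values was not tested. For the endothelial sums the gap was small (lowest sKO 301 CPM, highest WT 299 CPM).

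The genes of the other metabolic enzymes, Tigar and Dcxr, had opposite signs, and neither passed. Tigar encodes a fructose bisphosphatase that slows glycolysis and turns glucose carbon to the pentose phosphate pathway. It was at 13.4, 12.2, 11.1 and 12.7 CPM in sKO-1 to sKO-4, against 15.7 and 16.6 CPM in WT-1 and WT-2. The groups did not overlap. The means were 12.4 ± 0.938 CPM (SD, n = 4) in sKO and 16.2 ± 0.665 CPM (SD, n = 2) in WT. The log2 fold change was −0.39 (SE 0.14, 95% interval −0.71 to −0.06), and it did not pass (adjusted p = 0.275, or 0.0552 with the subset term). Dcxr, a reductase of dicarbonyls and xylulose, was at 2.31 to 3.52 CPM in sKO and at 2.08 and 2.42 CPM in WT. Its groups overlapped. With library counts of 40 to 66, its log2 fold change of 0.40 had a wide 95% interval of −0.28 to 1.09 (adjusted p = 0.668).

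Among the excision repair genes, Ercc5 had a positive and Xpc and Ddb2 a negative log2 fold change, and none passed without a covariate. Ercc5 encodes XPG, the nuclease that cuts the damaged strand on the 3′ side. It was at 39.6, 37.6, 45.5 and 47.6 CPM in sKO-1 to sKO-4, against 31.3 and 33.7 CPM in WT-1 and WT-2. All sKO libraries were above both WT libraries. The means were 42.6 ± 4.73 CPM (SD, n = 4) in sKO and 32.5 ± 1.76 CPM (SD, n = 2) in WT. The log2 fold change was 0.39 (SE 0.13, 95% interval 0.09 to 0.69, adjusted p = 0.225), and 0.38 with the subset term, where it was called (adjusted p = 0.0122). It was 0.28 within subset 1 and 0.46 within subset 2, and was called within subset 2 alone (0.0407). Its closest followers were Sbk1 (r = 0.999), Gpr153 (0.994) and Igf2bp2 (0.993), with 70 genes above 0.95. Their log2 fold changes were 0.47, 0.37 and 0.39, and none passed (adjusted p = 0.179, 0.300 and 0.321).

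Xpc encodes the protein that detects helix-distorting lesions across the genome. It was at 30.8, 31.0, 27.1 and 29.6 CPM in sKO-1 to sKO-4, against 36.9 and 32.2 CPM in WT-1 and WT-2. The groups did not overlap, by a gap between sKO-2 and WT-2 that was small beside the spread in each group. The means were 29.6 ± 1.80 CPM (SD, n = 4) in sKO and 34.6 ± 3.32 CPM (SD, n = 2) in WT, and the log2 fold change was −0.22 (95% interval −0.49 to 0.04, adjusted p = 0.491, or 0.0969 with the subset term). Ddb2, the subunit that recognises ultraviolet lesions in chromatin, was at 25.5, 22.3, 15.2 and 17.8 CPM in sKO-1 to sKO-4, against 27.0 and 20.8 CPM in WT-1 and WT-2. The groups overlapped, and in both genotypes subset 1 was the higher. Its log2 fold change was −0.24 (95% interval −0.76 to 0.28, adjusted p = 0.757). Of the exon bases of Ddb2, 652 (23.8%) are shared with Acp2 on the other strand (GENCODE M21 annotation). The sources used here do not say whether counting used strand, and without strand the shared reads cannot be told apart. Acp2 had a log2 fold change of 0.10 (adjusted p = 0.705).

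Polk encodes a translesion polymerase that copies past bulky adducts. It was at 27.2, 28.7, 21.9 and 21.3 CPM in sKO-1 to sKO-4, against 23.0 and 19.3 CPM in WT-1 and WT-2. The groups overlapped, with the higher sKO values in subset 1. Its log2 fold change was 0.23 (95% interval −0.17 to 0.63, adjusted p = 0.671, or 0.131 with the subset term).

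Rrm2b encodes the p53-inducible small subunit of ribonucleotide reductase, the enzyme that makes deoxynucleotides. It was at 22.6, 20.1, 14.2 and 11.4 CPM in sKO-1 to sKO-4, against 21.9 and 13.6 CPM in WT-1 and WT-2. The groups overlapped almost fully. The means were 17.1 ± 5.17 CPM (SD, n = 4) in sKO and 17.7 ± 5.89 CPM (SD, n = 2) in WT. The log2 fold change was −0.05 (95% interval −0.77 to 0.66, adjusted p = 0.971), and −0.06 (−0.33 to 0.21) with the subset term. Rrm2b shares 734 exon bases (8.04%) with the antisense transcript Gm49085, at 1.45 CPM in sKO and 1.97 CPM in WT on average. Its near copy Gm8616, 96.1% identical over 1051 bases, had an expected count of 0 in every library. Shorter stretches of Rrm2b transcripts are at least 95% identical to many expressed genes, such as Nedd4 (199 bases) and Mgea5 (184 bases). Mean expected counts of Nedd4 and Mgea5 were 28510 and 7934. How reads were divided between such genes and Rrm2b was not tested. Ak1, a cytosolic adenylate kinase that interconverts AMP, ADP and ATP, was at 5.98, 8.19, 4.33 and 5.60 CPM in sKO-1 to sKO-4. It was at 5.40 and 5.30 CPM in WT-1 and WT-2. The sKO values lay on both sides of WT, and the log2 fold change was 0.17 (95% interval −0.47 to 0.81, adjusted p = 0.877).

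**Figure D2:**
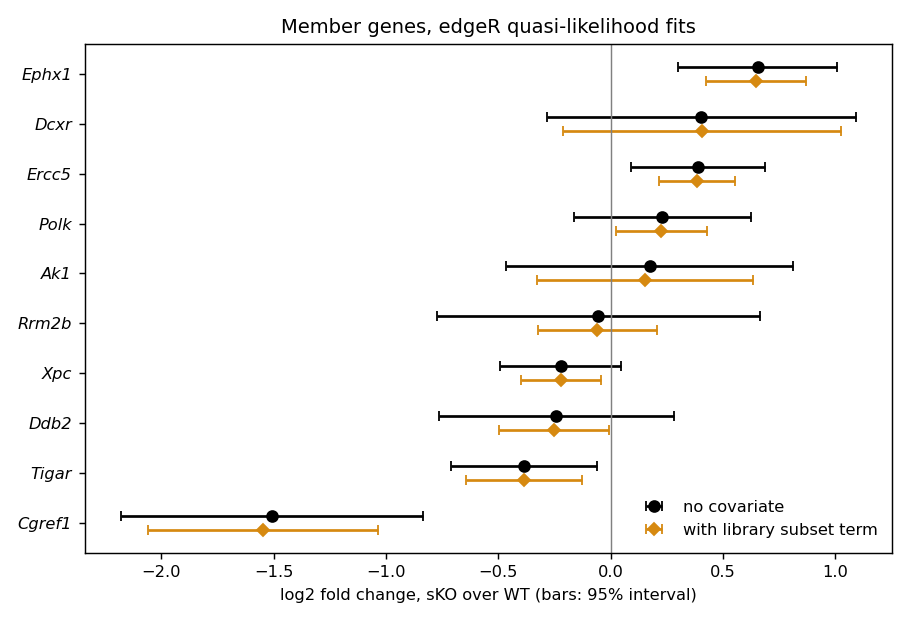
Log2 fold changes (sKO over WT, horizontal axis) of the 10 target genes are shown with 95% intervals, as black circles for the fit without a covariate and orange diamonds for the fit with the library subset term. The values run from −1.51 for Cgref1 to 0.65 for Ephx1, and the subset term narrows the interval of each gene while moving the values little.

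For several of the 10 genes, libraries of 1 genotype differed more than the genotypes did. The log2 CPM of Rrm2b was 0.74 higher in sKO-1 and sKO-2 than in sKO-3 and sKO-4, and 0.69 higher in WT-1 than in WT-2, beside a genotype difference of −0.05. For Ddb2 these differences were 0.53 in sKO and 0.38 in WT, beside −0.24 between genotypes, and for Polk 0.37 in sKO and 0.25 in WT, beside 0.23. Ephx1 and Ercc5 ran the other way, at −0.31 and −0.27 in sKO and at −0.09 and −0.11 in WT. Cgref1 was −0.67 in sKO and 0.15 in WT. The sign was the same in both genotypes for 7 of the 10 genes, beside 75.2% of all genes tested. Across the 10 genes the correlation of the sKO with the WT difference was r = 0.59, and across all 17707 genes r = 0.57. The subsets were set from the first principal component of these same values in both genotypes. Shared signs and a positive correlation are thus partly built in. The points share the libraries and their scaling, and genes are not independent replicates.

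**Figure D3:**
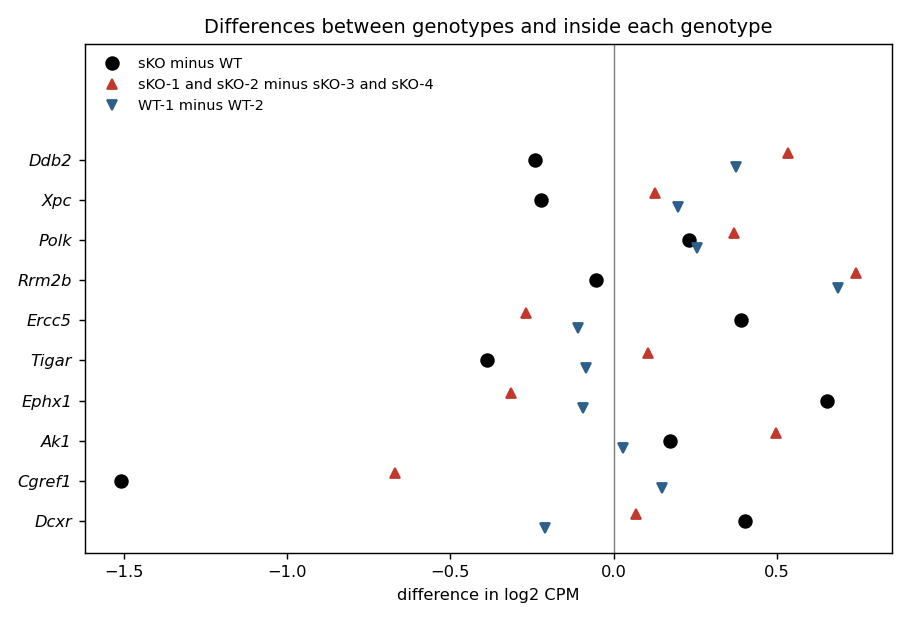
For each target gene the horizontal axis gives differences in log2 CPM, with black circles for sKO minus WT, red upward triangles for sKO-1 and sKO-2 minus sKO-3 and sKO-4, and blue downward triangles for WT-1 minus WT-2. Rrm2b has both triangles near 0.7 and its circle near 0, whereas Cgref1 has its circle at −1.51.

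Per length, with CPM divided by kilobases of merged exons in GENCODE M21, Ephx1 was the highest of the 10 in both genotypes. Its level was 18.7 ± 2.58 CPM per kb in sKO and 11.9 ± 0.549 CPM per kb in WT (SD, n = 4 and n = 2). In sKO the order below it was Ddb2, Ercc5, Xpc, Polk, Tigar, Dcxr, Ak1, Rrm2b and Cgref1. Library ranges overlapped between Ddb2 and Ercc5, between Xpc and Polk, and between each neighbour from Tigar down to Cgref1. In WT the order was Ddb2, Xpc, Ercc5, Tigar, Polk, Cgref1, Ak1, Dcxr and Rrm2b, with overlap between Polk and Cgref1 and among Ak1, Dcxr and Rrm2b. Cgref1 was thus at rank 10 in sKO, at 1.18 ± 0.334 CPM per kb, and at rank 7 in WT, at 3.34 ± 0.248 CPM per kb. Among all tested genes with a length, the WT levels of the 10 lay between the percentiles 32.9 (Rrm2b) and 73.3 (Ephx1).

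**Figure D4:**
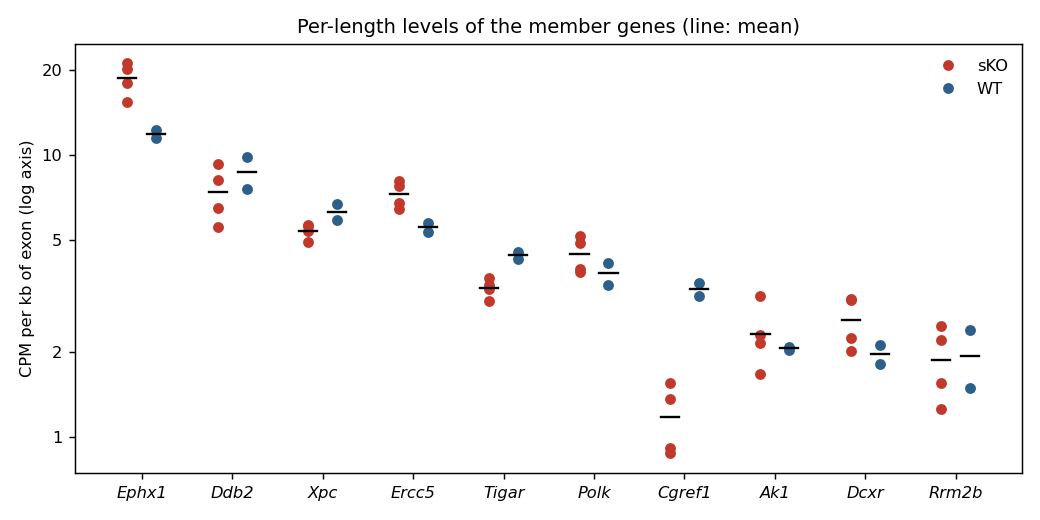
The vertical log axis gives CPM per kb of merged exon for each target gene, with red points for the 4 sKO libraries, blue points for the 2 WT libraries and short lines for means. Ephx1 is the highest gene in both groups, and Cgref1 has the widest gap, with sKO at 0.875 to 1.55 and WT at 3.17 to 3.52 CPM per kb.

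The genes next to the 10 on their chromosomes did not pass. Of 20 nearest protein-coding neighbours, 16 were tested and 0 were called by edgeR, DESeq2 or limma-voom, with 0 at an unadjusted p under 0.05 (edgeR). Khk and Preb, beside Cgref1, had log2 fold changes of 0.28 and −0.02 (adjusted p = 0.540 and 0.959). Tmem63a, beside Ephx1, was at 0.27 (adjusted p = 0.521), and Bivm, beside Ercc5, at 0.08 (0.934). With the subset term 1 neighbour was lower, Lsm3 beside Xpc (adjusted p = 0.0334).

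Of 37 other targets, mostly of arrest, stress and death, 0 were higher and 0 lower. At an unadjusted p under 0.05, 9 passed, beside 13.1% of all genes. DESeq2 called 2 of the 37 targets higher and limma-voom 0, with 112 and 18 higher over the whole table. Their median log2 fold change was 0.15, or 0.23 within subset 1, 0.08 within subset 2 and −0.01 with Sertoli library sizes. The most abundant were Sulf2, a heparan sulfatase (0.26, adjusted p = 0.558), and Abhd4, a lipase (0.26, adjusted p = 0.199). With the subset term 4.97% of all genes were higher and 8.65% lower. In that fit 7 of the 37 were higher, with the largest value for the receptor gene Eda2r (0.88, adjusted p = 0.0118), and 3 were lower. Those 3 were Pmaip1, a BH3-only death gene (−0.86, adjusted p = 0.0379), Ckap2 (−0.30, 0.0228) and Ppm1d, a phosphatase that damps p53 (−0.28, 0.0277). Of 13 other metabolic targets 0 passed in edgeR, DESeq2 or limma-voom, 1 at an unadjusted p under 0.05, with a median of 0.06. Fdxr, a mitochondrial electron carrier enzyme, was at 0.36 (adjusted p = 0.210), and Pank1, which starts coenzyme A synthesis, at 0.27 (adjusted p = 0.765). With the subset term these 2 were higher and 0 were lower.

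Partners of the 10 in the same pathways held 2 genes that fell. Of 26 other excision repair genes, 1 was lower and 0 higher (median −0.03). It was Rpa2, a subunit of the protein that coats single-stranded DNA, at 57.4 ± 4.31 CPM (SD, n = 4) in sKO and 83.2 ± 1.31 CPM (SD, n = 2) in WT (log2 fold change −0.54, SE 0.09, adjusted p = 0.0350). Its call ended without each of the 6 libraries in turn (sKO-1 0.0775, sKO-2 0.0822, sKO-3 0.102, sKO-4 0.0547, WT-1 0.295, WT-2 0.109). Of 19 other genes of nucleotide supply, 1 was lower and 0 higher (median −0.13). It was Ak4, a mitochondrial paralog of Ak1, at 7.31 ± 1.58 CPM (SD, n = 4) in sKO and 22.4 ± 1.69 CPM (SD, n = 2) in WT (log2 fold change −1.62, SE 0.20, adjusted p = 0.0138). That call ended without WT-1 (0.171). DESeq2 called 2 lower in the repair list and 3 lower in the nucleotide list, and limma-voom 1 lower in each. With the subset term 5 repair genes were lower (Rpa2, Rpa1, Ercc3, Gtf2h3 and the ligase gene Lig1) and 1 was higher (Rad23b, whose protein binds XPC). In the nucleotide list 5 were lower in that fit (Ak4, Ak6, Dck, Nme1 and Rrm1). Without a covariate Rrm1, the large reductase subunit that pairs with the Rrm2b protein, and Rrm2, the replicative small subunit, were at −0.23 and −0.25 (adjusted p = 0.316 and 0.583). Of 16 proliferation genes, 2 were lower and 0 higher (median −0.25), Ccnb1 (adjusted p = 0.0276) and Mcm7 (0.0473). When 1 library was left out, 0 of them were lower, except 1 without sKO-4. The sums of the proliferation genes and of the germ cell markers did not overlap between genotypes, with sKO the lower (1868 to 2159 CPM in sKO and 2362 to 2455 CPM in WT for proliferation). Their part in the values of Rpa2 and Ak4 was not tested.

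In the remaining lists 0 genes passed in edgeR, DESeq2 or limma-voom. The counts below stand beside 13.1% of all genes at an unadjusted p under 0.05. With the subset term the shares of all genes were 4.97% higher and 8.65% lower. Of 9 other translesion genes the median was −0.18, with 1 at an unadjusted p under 0.05, and Usp1 and Pcna, the most abundant, were at 0.04 and −0.19 (adjusted p = 0.969 and 0.610). Of the 16 tested genes of glycolysis and the pentose phosphate branch around Tigar, the median was 0.08, with 3 at an unadjusted p under 0.05. Hexokinase Hk2 was at 0.20 and transketolase Tkt at 0.27 (adjusted p = 0.447 and 0.500), and the subset term called Tkt higher (0.0230) and Taldo1 (0.00375) and Rpia (0.0158), both of the pentose branch, lower. Of 15 other enzymes of epoxides, carbonyls and glucuronate, the median was 0.05 with 0 at an unadjusted p under 0.05. The glutathione transferases Gstm1 and Gstm2 were at 0.10 each (adjusted p = 0.842 and 0.822), and the subset term called 1 higher, the aldehyde reductase gene Akr1a1 (0.0306). With Sertoli library sizes the medians of the glycolytic and the epoxide list were −0.09 and −0.12. Trp53 and Mdm4, its inhibitor, were at 0.18 and 0.04 and did not pass (adjusted p = 0.788 and 0.955).

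**Figure D5:**
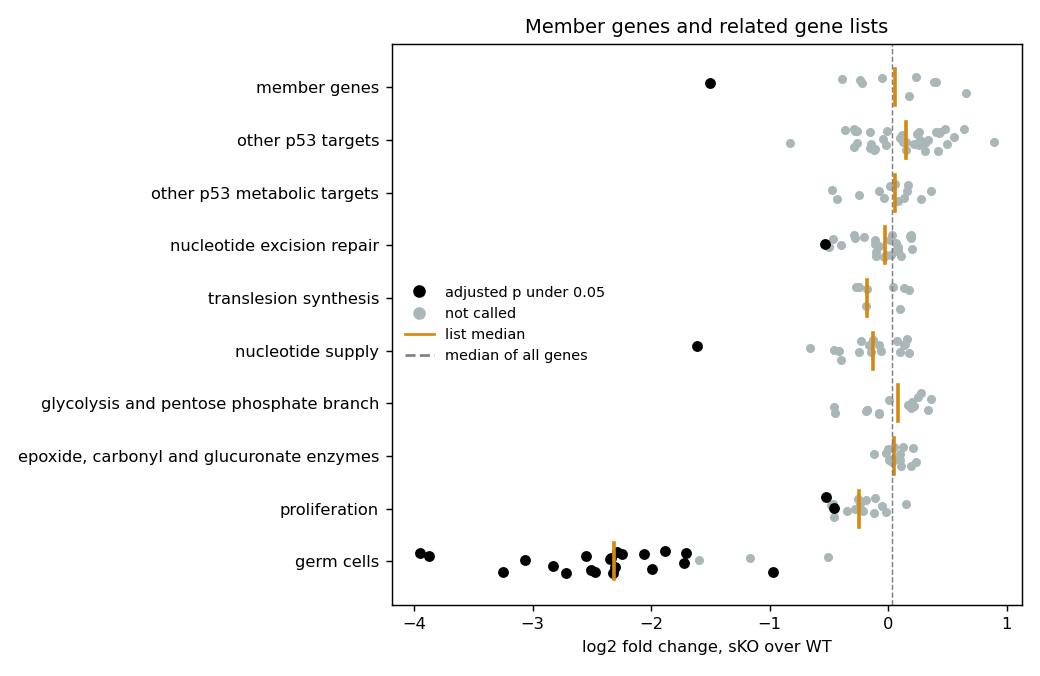
Each point is the log2 fold change (sKO over WT, horizontal axis) of 1 tested gene in the list on that line, black where the adjusted p was under 0.05 and grey otherwise, with orange ticks for list medians and a dashed line for the median of all genes (0.03). There is 1 black point each for the target genes, excision repair and nucleotide supply and 2 for proliferation, whose list has 15 of 16 genes below 0, while the germ cell list lies around −2.32.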

How the data were processed

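Messenger RNA of testes was sequenced in 6 libraries, 4 sKO and 2 WT, grouped by their titles. The authors deposited 1 table of expected counts (values that need not be whole), made with fastp, STAR and RSEM on the build mm39, per the submitters' processing notes. The sources used here do not give their roles, versions, annotation or strand setting. Every column matched a sample. Symbols came from GENCODE M21 (GRCm38), which named 90.5% of the 57170 identifiers; 444 identifiers have no Ensembl form.

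Counts were rounded, filtered with filterByExpr (minimum count 10), TMM-scaled and tested two-sided with edgeR 4.0.16 (R 4.3.3; glmQLFit, glmQLFTest) on all 6 libraries without a covariate, with Benjamini-Hochberg adjustment over the 17707 genes left; all 10 members passed the filter. SE is the log2 fold change over the root of F, and log2 CPM use a prior of 2 counts. Near copies were sought with BLAST 2.17.0 (at least 95% identity over 100 bases). In simulated data the fit called 8 of 67 genes changed 1.5-fold, 40 of 67 changed 2-fold and 56 of 65 changed 4-fold. Of 17067 unchanged genes it called 8. In the simulation changes near 1.5-fold were mostly not called. Its counts were drawn independently for each gene and library, without library subsets. These shares may therefore differ in the real libraries. Libraries of 1 group differed by a chi-square per gene of 4.07 to 24.8, where sampling noise gives about 1, so none were merged.

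The members, lists and alternatives were chosen with earlier results of these data known. Named were the 10 members, Mdm2, Trp53 and Mdm4, the neighbouring genes, up to 4 called or else the 2 most abundant genes per list, and the 3 genes most correlated with each called member or of the subset fit. Rrm1, Rrm2, Acp2 and the list genes called in the subset fit alone were named after their values were seen. Alternatives were DESeq2 1.42.0, limma-voom (limma 3.58.1), RLE and upper-quartile factors, Sertoli library sizes, other filters, unrounded counts, each library left out, a library subset term, each subset alone and a replicate block. Where a fit held 1 WT library, the spread came from the sKO libraries.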

Additional observations from a re-analysis of the deposited data

How the results depend on the processing

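Of 190 values (10 genes under 19 alternatives), 170 kept direction and side of the threshold. The number of target genes higher was 0, and 1 with no count filter, 1 with DESeq2, 2 with the library subset term and 2 within subset 2 alone. The number lower was 1, and 0 within subset 2 alone and in each fit that left out a library. RLE, upper-quartile and Sertoli scaling changed no direction or call of the 10; Sertoli library sizes moved the median of all genes to −0.14, from which values there are to be read. Rrm2b turned to 0.03 without sKO-3, 0.07 without sKO-4, 0.33 without WT-1, 0.29 with the replicate block and 0.25 in the libraries numbered 1 and 2 without it. With a library left out its range was −0.39 to 0.33. Ak1 turned to −0.011 without sKO-2 (range −0.011 to 0.30) and −0.10 within subset 2 alone. Genes called over the whole table numbered 22 higher and 408 lower. Higher were 7 with Sertoli library sizes, 112 with DESeq2, 880 with the subset term, 282 and 267 within subsets 1 and 2, 9 in the libraries numbered 1 and 2, and 2 to 7 with a library left out. Lower were 685 with DESeq2, 1531 with the subset term, 946 within subset 1, 268 with the replicate block, 187 in the same libraries without it, and 1 to 225 with a library left out. The causes were not tested. The labels do not say whether replicate numbers pair the libraries. Over the 4 libraries numbered 1 and 2, deviations from the group mean of same-numbered libraries correlated at −0.01. With all 6 libraries the values were 0.42 for number 1 and −0.44 for number 2. The deviations of WT-1 and WT-2 mirror each other, so these values are not separate evidence. With the block Cgref1 was called (adjusted p = 0.0369) and no other member. The lowest counts were 34.2 to 141 for Cgref1, 40 to 66 for Dcxr and 75 to 153 for Ak1, while Rrm2b, at 198 to 427, had the largest SE of the 10 (0.31).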
